A study of Homo sapiens with 6 samples.

Results

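Messenger RNA was sequenced in 2 states of a human breast cancer cell culture: the established triple-negative line MDA-MB-231 and its glutamine-independent derivative MDA-MB-231GlnIND, here called GlnIND. The 3 parental libraries came from cells in glutamine-replete RPMI 1640 with 10% fetal bovine serum. The 3 GlnIND libraries came from cells kept for more than 6 weeks in RPMI 1640 lacking glutamine, with 10% dialyzed serum, so that the lack of glutamine, the change of serum and the time in culture cannot be told apart. The labels do not say whether the replicates were separate cultures or whether the derivative was a clone, and p-values below reflect only library-to-library spread, possibly technical.

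The genes described here were almost without counts in parental cells and measurable in GlnIND cells. They were selected on these same libraries. Counts summed over the 3 parental libraries were at most 6, and the mean over the 3 GlnIND libraries was at least 1 CPM, the count scaled to the library total. Of the 28265 genes counted, 81 met both limits, or 0.287%. Names starting with MAGE, PCDH or COL, together with ABAT and HS6ST2, were set aside, which removed 5 of the 81 and left 76 genes. The selected set held 63 protein-coding genes, 11 long non-coding RNAs and 2 transcribed pseudogenes. All 76 passed the filter on low counts and were called higher in GlnIND by edgeR, against 28.4% of all 13949 genes tested. The limits fix that outcome, so the values of the 76 genes are given as a description, with no test.

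A gene with no counts in one state of a cell and transcripts in another is usually said to be silent and then switched on. Silent genes in cancer lines are often tissue-specific, such as those for neuronal receptors, developmental transcription factors and extracellular matrix, and they are commonly held by DNA methylation or by repressive histone marks. Glutamine feeds nitrogen and carbon to nucleotide and amino acid synthesis and to the tricarboxylic acid cycle. Its breakdown supplies alpha-ketoglutarate, a cosubstrate of many, though not all, of the enzymes that take part in removing methyl groups from DNA and histones.

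Library totals ranged from 18256219 to 24594248 counts. Among genes with 1 to 19 counts in a library, 60.6% to 65.0% had an even count. Counts were therefore treated as if each read pair gave 2 of them, the reason for the even counts not being tested, and the detection floor of 3 read pairs was set at 6 counts over the 3 libraries of a group, or 0.0999 CPM in parental cells. Where all 3 parental libraries had no counts, a fold was computed against that floor and is a lower bound. Otherwise a ratio is given with an exact 95% Clopper-Pearson interval on halved counts. Floors and intervals cover counting error only. A listed 0 is also not proof of silence: VARS1, the valyl-tRNA synthetase gene that every cell needs, had 4, 0 and 3 parental and 3, 3 and 3 GlnIND counts. VIM, a mesenchymal filament gene typical of this line, stood at a mean of 3768 CPM in parental and 6404 CPM in GlnIND libraries, and the 12 markers of basal mesenchymal breast cancer lines summed to between 8124 and 8442 CPM and to between 12047 and 12249 CPM. That list was divided. By edgeR VIM, AXL, S100A4, FN1 and SPARC were called higher, and CD44, CAV1, CAV2, MET and ZEB1 lower, with log2 fold changes from -0.30 (CD44) to -0.78 (CAV2). MSN and LGALS1 were not called. These are bulk libraries: a gene expressed weakly in every cell and a gene expressed strongly in few cells cannot be told apart.

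The parental values of the 76 genes were mostly exact zeros. Of the 228 parental values, 153 were 0, 51 were 2 and 11 were 4, and 30 genes had no count in any parental library. The summed level of the set was 2.35, 3.07 and 3.39 CPM in parental libraries 1, 2 and 3, and 301 CPM, 305 CPM and 308 CPM in GlnIND libraries 1, 2 and 3. The 3 GlnIND libraries therefore lay close together and far above every parental library. A few genes carried a large share of this: EPB41L3 alone gave 22.2% of the set's GlnIND counts, and EPB41L3, PGM5 and AMPH together gave 40.8%. The median gene stood at a mean of 1.64 CPM in GlnIND, 43 genes lay under 2 CPM, and 11 genes reached 5 CPM or more. Ratios of GlnIND over parental, lower bounds included, ran from 10.1 to 1014 with a median of 25.3.

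Promoter sequence is shown for genes on which the account below turns: EPB41L3 and AMPH, the most abundant genes of the set with an entry in the RefSeq promoter table; HTR2C, a serotonin receptor gene that lies between 2 strongly changed neighbours; and SEMA5A, whose upstream window holds the start of another gene of the set, SNHG18. Each run is the 250 bases before the gene's start in GRCh38.p14, 5′ to 3′ on the gene's own strand, with every CG dinucleotide, the site of DNA methylation, in capitals.
EPB41L3, chr18:5628992-5629241, minus strand: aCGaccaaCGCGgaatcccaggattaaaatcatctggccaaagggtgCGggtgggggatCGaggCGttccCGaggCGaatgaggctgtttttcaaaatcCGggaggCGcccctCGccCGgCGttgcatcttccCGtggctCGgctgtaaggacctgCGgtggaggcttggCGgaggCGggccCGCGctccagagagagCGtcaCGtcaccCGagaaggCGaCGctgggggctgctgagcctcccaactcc
AMPH, chr7:38631374-38631623, minus strand: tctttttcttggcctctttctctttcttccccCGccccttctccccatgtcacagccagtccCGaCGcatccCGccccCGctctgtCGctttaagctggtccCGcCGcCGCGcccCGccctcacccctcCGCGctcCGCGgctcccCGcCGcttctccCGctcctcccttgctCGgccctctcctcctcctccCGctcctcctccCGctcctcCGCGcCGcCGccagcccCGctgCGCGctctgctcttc
HTR2C, chrX:114583836-114584085, plus strand: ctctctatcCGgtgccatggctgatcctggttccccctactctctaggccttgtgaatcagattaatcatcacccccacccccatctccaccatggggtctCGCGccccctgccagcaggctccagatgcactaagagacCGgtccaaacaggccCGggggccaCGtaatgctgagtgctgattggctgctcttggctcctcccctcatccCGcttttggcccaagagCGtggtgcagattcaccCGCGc
SEMA5A, chr5:9546076-9546325, minus strand: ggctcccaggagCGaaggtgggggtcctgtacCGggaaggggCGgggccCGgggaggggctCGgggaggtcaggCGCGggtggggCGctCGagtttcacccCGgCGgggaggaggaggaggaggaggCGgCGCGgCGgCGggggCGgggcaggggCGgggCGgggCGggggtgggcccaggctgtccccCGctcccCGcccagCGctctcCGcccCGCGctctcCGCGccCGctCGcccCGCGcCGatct
The 4 windows held 25 CG dinucleotides (EPB41L3), 28 (AMPH), 10 (HTR2C) and 33 (SEMA5A), at a GC share of 65.2%, 71.6%, 60.8% and 82.0%. An entry was found for 47 of the 76 genes, or 61.8%. That is under the 80% set for a check over the set, so a comparison of CG content or of motifs with other promoters is void.

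**Figure D1:**
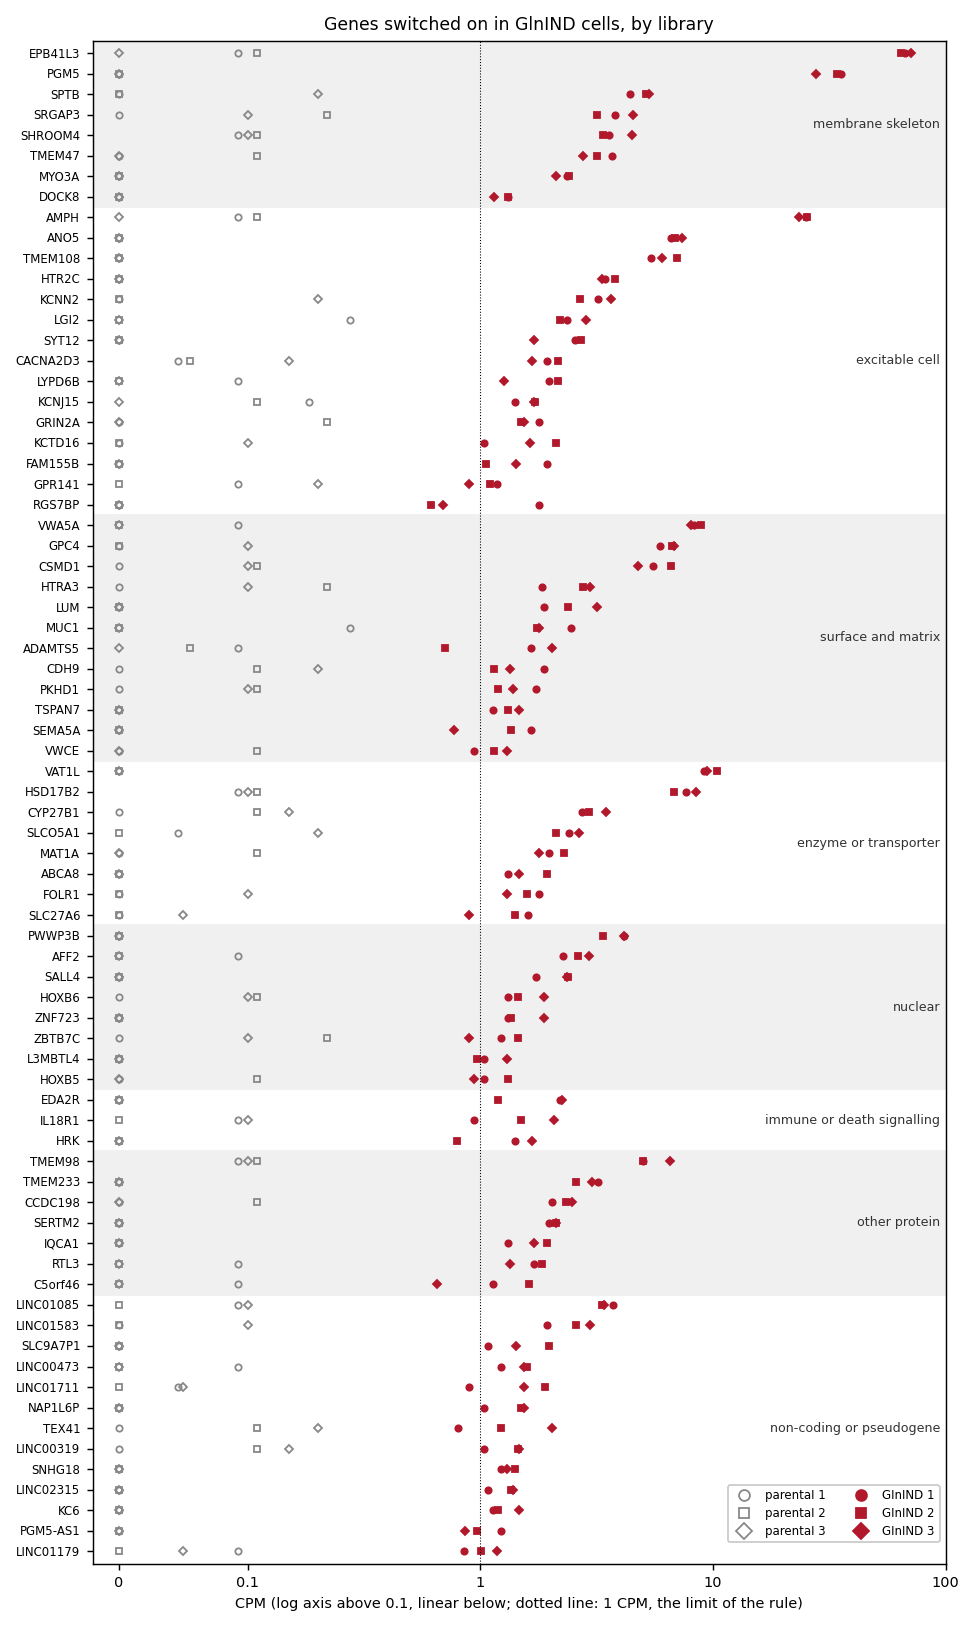
CPM of the genes reported here (vertical) in each of the 6 libraries, on an axis that is logarithmic above 0.1 CPM and linear below. Open grey symbols are parental and filled red symbols GlnIND libraries, shaded bands group the genes by role, and the dotted line marks 1 CPM. EPB41L3 stands highest at 67.4 CPM on average, most genes lie between 1 and 5 CPM in GlnIND, and no red symbol meets a grey one in its row.

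Genes of the membrane skeleton and cell junctions numbered 8 and gave 39.1% of the set's summed CPM in GlnIND. EPB41L3 is a band 4.1 protein that ties membrane proteins to spectrin and actin. It had 2, 2 and 0 counts in parental libraries 1, 2 and 3 and 1427, 1469 and 1742 counts in the GlnIND libraries, a mean of 67.4 ± 3.21 CPM (SD, n = 3) and a ratio of 1014 (95% interval 280.4 to 8379). PGM5 encodes aciculin, a phosphoglucomutase relative found at adherens junctions and focal adhesions. It had no parental counts and 755, 780 and 679 GlnIND counts, or 32.4 ± 4.23 CPM (SD, n = 3), at least 323-fold higher. GlnIND 3 was the lowest of the 3 for PGM5, yet every GlnIND library was far above the parental ones.

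The rest of this group was much weaker. SPTB, the beta spectrin of the red cell membrane, had 0, 0 and 4 parental and 94, 118 and 131 GlnIND counts. SRGAP3, a GTPase-activating protein with a membrane-bending F-BAR domain, had 0, 4 and 2 against 81, 72 and 111 counts. Both are long transcripts, and per kilobase of exon they stood at 0.336 and 0.202 CPM, against 5.53 for EPB41L3. SHROOM4, an actin-associated protein, had 2 counts in each parental library and 76, 77 and 110 in GlnIND. TMEM47, a junction membrane protein, had 0, 2 and 0 against 78, 72 and 68 counts. MYO3A, a class III myosin, and DOCK8, an exchange factor for CDC42, had no parental counts, with 50, 55 and 52 GlnIND counts for MYO3A and 28, 30 and 28 for DOCK8. In each of these genes the lowest GlnIND library was well above the highest parental one.

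PGM5 has close copies in the genome, and how reads matching several places were treated is not given in the sources used here. The pseudogene PGM5P2 had 65, 31 and 34 parental and 79, 72 and 80 GlnIND counts. PGM5P4 had no parental counts and 2, 5 and 9 in GlnIND. The antisense RNA PGM5P3-AS1 had 3, 4 and 3 against 68, 85 and 77 counts. The PGM5 level is therefore uncertain to the extent that reads were shared with these copies, and the part of such sharing was not tested. PGM5-AS1, which overlaps PGM5, is also a member, with no parental counts and 26, 22 and 21 in GlnIND. The strand setting of the counting is not given either, so reads of PGM5 and PGM5-AS1 cannot be told apart.

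The largest group, 15 genes, held genes known mostly from neurons, muscle and other excitable cells and gave 20.1% of the summed CPM. AMPH encodes amphiphysin, a BAR-domain protein of synaptic vesicle endocytosis. It had 2, 2 and 0 parental counts and 537, 577 and 577 in GlnIND, a mean of 24.7 ± 1.05 CPM (SD, n = 3) and a ratio of 370 (95% interval 102 to 3058). Per kilobase of exon AMPH and PGM5 stood at 4.38 and 4.37 CPM, closer together than the spread between libraries. ANO5, an anoctamin of muscle membranes, and TMEM108, a neuronal transmembrane protein, had no parental counts and 141, 156 and 181 counts (ANO5) and 115, 159 and 149 counts (TMEM108) in GlnIND.

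Receptors and channels made up much of the rest. HTR2C, a serotonin receptor, had no parental counts and 73, 86 and 82 in GlnIND, at least 35.1-fold higher. KCNN2, a calcium-activated potassium channel, had 0, 0 and 4 parental and 68, 61 and 90 GlnIND counts. KCNJ15, an inward rectifier potassium channel, had 4, 2 and 0 against 30, 39 and 42 counts. The 2 potassium channels thus had few counts, in every GlnIND library above every parental one. GRIN2A, an NMDA glutamate receptor subunit, had 0, 4 and 0 against 38, 34 and 38 counts. CACNA2D3, a subunit of voltage-gated calcium channels, had 1, 1 and 3 against 41, 49 and 41 counts. SYT12, of the synaptotagmin family of vesicle proteins, had no parental counts and 54, 62 and 42 in GlnIND. These levels were low: per kilobase of exon GRIN2A stood at 0.0963 CPM and SYT12 at 0.214 CPM.

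The other genes of this group were LGI2, KCTD16, FAM155B, GPR141, LYPD6B and RGS7BP, with GlnIND means between 1.03 and 2.46 CPM. GPR141, an orphan G protein-coupled receptor known mainly from blood cells, was placed here as a receptor only. LGI2, a secreted protein of neurons, had all 6 of its parental counts in parental 1. RGS7BP, a membrane anchor of G protein regulators, was the least even gene of the set, with 38, 14 and 17 GlnIND counts, and lay under 1 CPM in GlnIND 2 and 3. The 12 markers of neuronal or neuroendocrine cells summed to 4.38 to 5.06 CPM in parental and 6.30 to 7.85 CPM in GlnIND libraries, INSM1, NEUROD1 and ELAVL4 were at 0 in all 6, and STMN2 was at 0 in GlnIND. Within the list SYP and SYT1 were called higher by edgeR (adjusted p = 0.00378 and 0.00293) and SNAP25 lower (log2 fold change -2.38, adjusted p = 0.000306).

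Cell surface and matrix genes numbered 12, with 11.7% of the summed CPM. VWA5A, a protein with a von Willebrand factor A domain, led them, with 2, 0 and 0 parental and 177, 202 and 198 GlnIND counts. VWA5A was placed here for that domain only, and where the protein lies in the cell was not measured. GPC4, a glypican that carries heparan sulfate on the cell surface, had 0, 0 and 2 against 126, 152 and 168 counts, and CSMD1, a large protein with CUB and sushi domains, had 0, 2 and 2 against 118, 150 and 117. VWA5A and GPC4 were even across the GlnIND libraries, with coefficients of variation (SD over mean) of 4.90% and 7.48%, against 16.2% for CSMD1. HTRA3, a secreted serine protease, had 0, 4 and 2 against 39, 63 and 73 counts. LUM encodes lumican, a collagen-binding proteoglycan, and had no parental counts and 40, 54 and 78 in GlnIND. ADAMTS5, a protease that cleaves the proteoglycan aggrecan, had 2, 1 and 0 against 35, 16 and 50 counts, a coefficient of variation of 46.9%.

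LUM is also a fibroblast marker, and the fibroblast or smooth muscle list of 12, LUM included, summed to 8.93 to 10.3 CPM in parental and 25.2 to 29.3 CPM in GlnIND libraries. COL1A1 made up 48.0% and 48.4% of it, at a mean of 4.73 and 12.9 CPM. Besides LUM and COL1A1, edgeR called PDGFRB (1.01 to 3.25 CPM, adjusted p = 0.000407), TAGLN (2.09 to 5.03 CPM, adjusted p = 0.00399) and MYH11 (0.529 to 1.32 CPM, adjusted p = 0.0189) higher, the MYH11 call being lost without parental 2 (0.0727) or GlnIND 1 (0.0813). DCN, the companion proteoglycan of fibroblasts, was at 0 in all 3 GlnIND libraries, COL1A2 was at 0, 12 and 0 counts there, and THY1 at 0, 2 and 4. The part of this list in the LUM level was not tested. MUC1, the transmembrane mucin of epithelia, had all 6 of its parental counts in parental 1 and 52, 40 and 44 counts in GlnIND. The other surface genes were the type II cadherin CDH9, the cilium protein PKHD1, the tetraspanin TSPAN7, the guidance protein SEMA5A and the secreted protein VWCE, with GlnIND means between 1.13 and 1.45 CPM.

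Enzymes and transporters numbered 8, and HSD17B2 and VAT1L gave most of their counts. VAT1L, of the quinone oxidoreductase family, had no parental counts and 194, 237 and 232 in GlnIND, at least 96.7-fold higher. HSD17B2, which oxidises estradiol and testosterone to their weaker ketones, had 2 counts in each parental library and 163, 155 and 207 in GlnIND, a ratio of 76.5 (95% interval 25.9 to 374). CYP27B1, the enzyme that activates vitamin D, had 0, 2 and 3 against 58, 67 and 85 counts. Both hormone enzymes were thus far above their parental values in every GlnIND library. MAT1A, the liver form of the enzyme that makes S-adenosylmethionine, had 0, 2 and 0 against 42, 52 and 44 counts. FOLR1, folate receptor alpha, had 0, 0 and 2 against 38, 36 and 32 counts. The transporters SLCO5A1, ABCA8 and SLC27A6 had GlnIND means of 2.38, 1.57 and 1.30 CPM.

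Nuclear proteins numbered 9 and gave 5.32% of the summed CPM. PWWP3B, a protein with a histone-binding PWWP domain, had no parental counts and 88, 77 and 102 in GlnIND. AFF2, of the AF4/FMR2 family, had 2, 0 and 0 against 48, 60 and 72 counts. SALL4, a zinc finger factor of embryonic stem and germ cells, had no parental counts and 37, 54 and 58 in GlnIND. Germ cell markers were at or near 0: the list of 10 summed to at most 0.598 CPM in any library, and DDX4, TDRD1, SYCP1, PRM1, PRM2, TNP1 and DPPA3 were at 0 in all 6. The homeobox genes HOXB6 and HOXB5, neighbours in the HOXB cluster, had 0, 2 and 2 against 28, 33 and 46 counts (HOXB6) and 0, 2 and 0 against 22, 30 and 23 counts (HOXB5). The nuclear genes ZNF723, ZBTB7C and L3MBTL4 had means between 1.10 and 1.52 CPM.

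In 4 genes the product acts in immune or death signalling. EDA2R, a tumor necrosis factor receptor family member that binds ectodysplasin A2, had no parental counts and 47, 27 and 55 in GlnIND. IL18R1, a receptor chain for interleukin 18, had 2, 0 and 2 against 20, 34 and 51 counts. HRK, a BH3-only activator of apoptosis, had no parental counts and 30, 18 and 41 in GlnIND. These were uneven across GlnIND libraries, with a median coefficient of variation of 33.5% over the 4 genes. CD3E, which marks T cells, was at 0 in all 6 libraries, as were MS4A1, ITGAM and FCGR3A, while the immune list of 12 summed to 4.66 to 6.43 CPM in parental and 10.95 to 11.84 CPM in GlnIND libraries. CSF1R, a macrophage receptor, rose from 2.30 to 6.99 CPM (log2 fold change 1.46, edgeR adjusted p = 0.000486), and CD8A stood at 1.78 and 2.78 CPM without a call (edgeR adjusted p = 0.108). The part of this list in the levels of the 4 genes was not tested.

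The other proteins were TMEM98, TMEM233, CCDC198, SERTM2, IQCA1, RTL3 and C5orf46. TMEM98, a transmembrane protein, was the strongest, with 2 counts in each parental library and 106, 114 and 160 in GlnIND. TMEM233 had no parental counts and 68, 59 and 74 in GlnIND. RTL3, derived from a retrotransposon gag gene, had 2, 0 and 0 against 36, 42 and 33 counts. The 13 non-coding RNAs and pseudogenes gave 6.65% of the summed CPM. LINC01085 led them, with 2, 0 and 2 parental and 79, 76 and 84 GlnIND counts, followed by LINC01583, with 0, 0 and 2 against 41, 59 and 73. The others were LINC00473, LINC01711, TEX41, LINC00319, SNHG18, LINC02315, KC6, LINC01179, PGM5-AS1, SLC9A7P1 and NAP1L6P, at means between 1.01 and 1.49 CPM. SLC9A7P1 is a pseudogene of SLC9A7, which had 1027, 937 and 915 parental and 1449, 1758 and 1932 GlnIND counts, so reads of the 2 may have been shared. SPTB, LINC00473 and LINC00319 overlap genes counted at 1 CPM or more, PLEKHG3, PDE10A and HSF2BP, and their reads cannot be told apart without a strand setting.

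The spread between GlnIND libraries, which the limits did not use, was near that of other genes of the same level. Over the 43 genes at 1 to 2 CPM the median coefficient of variation was 19.5%, against 21.0% over 797 other genes in that range. Over the 22 genes at 2 to 5 CPM it was 12.6% against 13.7% over 1267 genes. Over the 11 genes at 5 CPM or more it was 7.48% against 5.87% over 6903 genes. The other genes were limited to GlnIND means no higher than that of EPB41L3, and levels within a range were not matched. EPB41L3 and AMPH were among the most even genes of the set, at 4.77% and 4.25%. In 58 of the 76 genes every GlnIND library reached 1 CPM. GlnIND 3 was the highest library for 35 genes, GlnIND 2 for 25 and GlnIND 1 for 16.

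The limits cut through a continuum. The genes just inside the GlnIND limit were LINC01179, PGM5-AS1 and RGS7BP, at means of 1.01, 1.01 and 1.03 CPM. Just outside were SCN8A, SKOR1 and ZNF676, at 0.997, 0.969 and 0.963 CPM with 6, 4 and 1 parental counts. HSD17B2, TMEM98 and SRGAP3 had exactly 6 parental counts. Just past that limit were CABP1 and ITPR1-DT with 7 parental counts, and CYP7B1, an oxysterol hydroxylase, with 0, 2 and 6 parental and 283, 342 and 408 GlnIND counts. In all, 51 genes had 7 to 12 parental counts and at least 1 CPM in GlnIND.

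Whether families moved together was asked from the relatives of the 76 genes, which the limits did not choose. A relative shares the symbol root, for example CDH for CDH9. Some roots name a series rather than a gene family: GPR held 33 tested relatives, SNHG 23 and TEX 7. Of the 76 genes, 52 had such a root, in 51 families with 519 relatives in the tables, and 292 relatives were tested in 39 of them. By edgeR's quasi-likelihood test with Benjamini-Hochberg adjustment, 99 relatives rose (33.9%) and 67 fell (22.9%), against 28.4% and 27.9% of all genes tested. The median log2 fold change was 0.12 over the relatives and 0.03 over all genes tested. No test of the difference between these shares was made, and the relatives were not matched to other genes by level. Relatives beyond the 2 most changed of a family were named after their values were seen. CPM values here are scaled to library totals, whereas the fitted log2 fold changes also use composition (TMM) factors, which were 0.928 to 0.959 in parental and 1.05 to 1.06 in GlnIND libraries. A fitted log2 fold change is therefore lower than the log2 ratio of the mean CPM values, which makes rises smaller and falls larger.

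The membrane skeleton relatives of EPB41L3 mostly did not follow it. EPB41L1 rose from 26.1 to 48.3 CPM (log2 fold change 0.73, SE 0.09, edgeR adjusted p = 0.000123). EPB41L4B fell from 46.3 to 19.5 CPM (-1.40, SE 0.08, edgeR adjusted p = 1.21e-06), and EPB41L2 and EPB41L5 fell by log2 values of 0.48 and 0.42, EPB41L5 no longer being called without GlnIND 3 (edgeR adjusted p = 0.0607). Of the 3 tested relatives of PGM5, PGM2 fell by 0.53 and PGM3 by 0.28, and none rose. Of the 3 SRGAP relatives of SRGAP3 none passed the test, and their fitted log2 values ran from -0.37 to 0.12. Myosins went the other way: 10 of 18 tested relatives of MYO3A rose and 1 fell. MYO1D, a class I myosin, stood at 0.552, 0.876 and 0.698 CPM in parental and 14.4, 16.4 and 16.0 CPM in GlnIND libraries (log2 fold change 4.31, SE 0.18, edgeR adjusted p = 1.79e-07).

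Families of excitable-cell genes were divided. Of 7 tested synaptotagmins 4 rose, SYT17 (log2 fold change 2.88, SE 0.27, edgeR adjusted p = 2.15e-05) and SYT11 (1.90, SE 0.32, edgeR adjusted p = 0.000678) most. All 3 tested LYPD genes rose. In contrast the calcium channel subunits beside CACNA2D3 fell in 2 of 3 cases: CACNA2D4 stood at 8.33, 8.87 and 12.9 CPM in parental and 0.752, 1.05 and 0.854 CPM in GlnIND libraries (log2 fold change -3.64, SE 0.24, edgeR adjusted p = 2.18e-06). KCNN3, the relative of KCNN2, stood at 3.27, 3.89 and 4.24 CPM in parental libraries and had no counts in GlnIND (edgeR adjusted p = 8.15e-06). KCNN2 and KCNN3 thus had nearly all their counts in opposite groups. KCNN4 rose by 0.55 on the log2 scale. The serotonin receptors HTR1D and HTR1F fell by 1.93 and 0.55, and none of the 3 tested relatives of HTR2C rose.

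Among surface genes, 4 of 7 tested cadherin relatives of CDH9 rose and none fell. CDH11, a mesenchymal cadherin, went from a mean of 27.0 to 162 CPM (log2 fold change 2.43, SE 0.09, edgeR adjusted p = 1.06e-07) and CDH12 from 2.03 to 11.2 CPM (2.31, SE 0.19, edgeR adjusted p = 9.14e-06). Of 17 semaphorins 7 rose and 6 fell. HTRA1 rose by 1.32 and HTRA2 by 0.40 on the log2 scale, the second no longer called without GlnIND 2 (edgeR adjusted p = 0.0651) or GlnIND 3 (0.0814). The glypican GPC1 was called lower (-0.83, edgeR adjusted p = 0.0381), a call lost when any library other than parental 1 was left out (adjusted p between 0.0506 and 0.134), with upper-quartile factors (0.0625) and with limma-voom (0.0810).

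Enzyme relatives moved in either direction. HSD17B12, which acts in fatty acid elongation, fell from 189 to 88.7 CPM (log2 fold change -1.24, SE 0.08, edgeR adjusted p = 2.22e-06), and HSD17B11 fell by 0.31. HSD17B4 was called higher by 0.25, a call lost without parental 2 or GlnIND 2 (edgeR adjusted p = 0.0697 and 0.0546). HSD17B7 was called lower by 0.57, a call lost without GlnIND 1 or GlnIND 2 (edgeR adjusted p = 0.0532 and 0.0528). MAT2A, the form of methionine adenosyltransferase outside the liver, and MAT2B, its regulatory subunit, were called higher by 0.25 and 0.28 on the log2 scale. MAT2A had means of 351 CPM in parental and 465 CPM in GlnIND libraries, against 2.01 CPM for MAT1A in GlnIND. The MAT2A call was lost without parental 2 or 3 or GlnIND 2 or 3 (edgeR adjusted p between 0.112 and 0.172) and with the replicate block (0.0565). The MAT2B call was lost without GlnIND 1 (0.0861) or GlnIND 3 (0.0764). Of the ABCA transporters 5 of 8 rose, ABCA3 most (1.31, SE 0.11, edgeR adjusted p = 1.07e-05). Of the SLC27A fatty acid transporters 3 of 5 were called higher. The SLC27A2 call was lost without parental 3 or GlnIND 2 (edgeR adjusted p = 0.0626 and 0.106), and the SLC27A3 call without GlnIND 2 (0.0606).

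**Figure D2:**
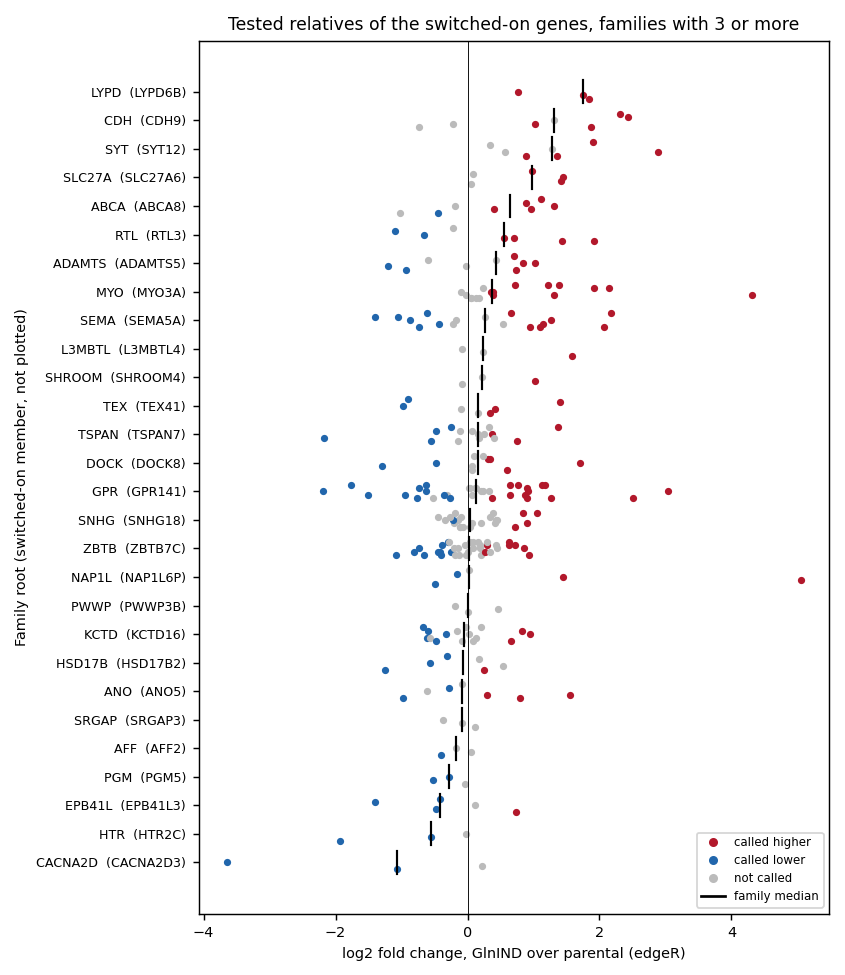
Log2 fold change of each tested relative, GlnIND over parental, by family, for the reported families with at least 3 tested relatives; red points were called higher, blue lower and grey not called by edgeR, and black bars are family medians. The 3 LYPD genes lie to the right of zero, and CACNA2D4 lies farthest to the left at -3.64.

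Pathway lists around the roles of the set were compared with the same fit. Every gene meeting the selection limits was left out, also those set aside by name. Lists of excitable-cell genes had more calls higher than lower. Of 21 tested voltage-gated and inward rectifier channel genes 12 rose and 1 fell, with a median log2 fold change of 0.59. KCNQ3, a neuronal potassium channel, rose from 1.22 to 24.8 CPM (log2 fold change 4.19, SE 0.14, edgeR adjusted p = 4.79e-08). Of 27 synaptic vesicle and neuronal genes 15 rose and 5 fell, NRXN3 and RIMS1 rising by 3.99 and 3.64 on the log2 scale. Of 10 glutamate and GABA genes 7 rose and 2 fell, and the kainate receptor subunits GRIK2 and GRIK4 changed by 1.64 and -1.64. All genes tested gave 28.4% higher, 27.9% lower and a median of 0.03. These shares depend on level. Of tested genes outside the selection, 34.2% rose and 13.9% fell under 10 CPM, against 25.1% and 34.7% at 10 CPM or more. The lists were not matched for level, and its part in their calls was not tested.

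The lists closest to the most abundant members were more balanced. Of 21 membrane skeleton genes 8 rose and 6 fell. ADD2, an adducin that caps actin at the spectrin network, stood at 0.736, 0.110 and 0.498 CPM in parental and 28.7, 28.3 and 26.3 CPM in GlnIND libraries (log2 fold change 5.73, SE 0.28, edgeR adjusted p = 3.46e-07). CADM1, an adhesion protein known to bind EPB41L3, stood at 0.184, 0.438 and 0.299 CPM against 15.2, 13.3 and 14.6 CPM (5.40, SE 0.23, edgeR adjusted p = 1.80e-07). Neither met the parental limit of the selection, and in both every GlnIND library lay far above the parental ones. Of 26 genes of BAR-domain and dynamin endocytosis, the list around AMPH, 5 rose and 10 fell, the extremes being the neuronal dynamin DNM1 (1.01) and FCHO1 (-1.04). Of 17 phosphoglucomutase and dystrophin complex genes 4 rose, DMD by 2.79 on the log2 scale, and 4 fell. Of 25 adhesion genes of the immunoglobulin and cadherin families 10 rose and 6 fell, ICAM1 falling from 57.0 to 5.77 CPM (-3.46, SE 0.11, edgeR adjusted p = 3.84e-08).

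Of 34 homeobox and lineage transcription factor genes 14 rose and 6 fell, SOX6, a factor of the SOX family, rising by 2.52 on the log2 scale. Of 26 aldo-keto, aldehyde and retinoid enzyme genes 14 rose and 4 fell, AKR1C3, a steroid ketoreductase, rising by 2.48. The DNA methylation and heterochromatin list went the other way: of 43 tested genes 28 fell and 3 rose, with a median log2 fold change of -0.31. CBX5, the heterochromatin protein HP1 alpha, fell from 182 to 88.0 CPM (-1.20, SE 0.06, edgeR adjusted p = 4.31e-07), and EZH1, a histone H3 lysine methyltransferase, rose from 18.8 to 46.8 CPM (1.16, SE 0.11, edgeR adjusted p = 1.82e-05). The maintenance methyltransferase DNMT1 fell by 0.27, the de novo enzymes DNMT3A and DNMT3B by 0.97 and 0.58, and the methyl-CpG reader MBD2 by 1.10 on the log2 scale. These last 4 were named for their role after their values were seen. Among the genes called higher was also the histone methyltransferase SUV39H1, a call lost without GlnIND 2 (edgeR adjusted p = 0.0541). The list mixes genes that set or read these marks with genes that take part in removing them, such as TET1, TET2, TET3 and TDG. With upper-quartile factors, which put the median of all genes at 0.12 on the log2 scale rather than 0.03, 22 of the list fell, and without parental 1 those that rose numbered 6.

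**Figure D3:**
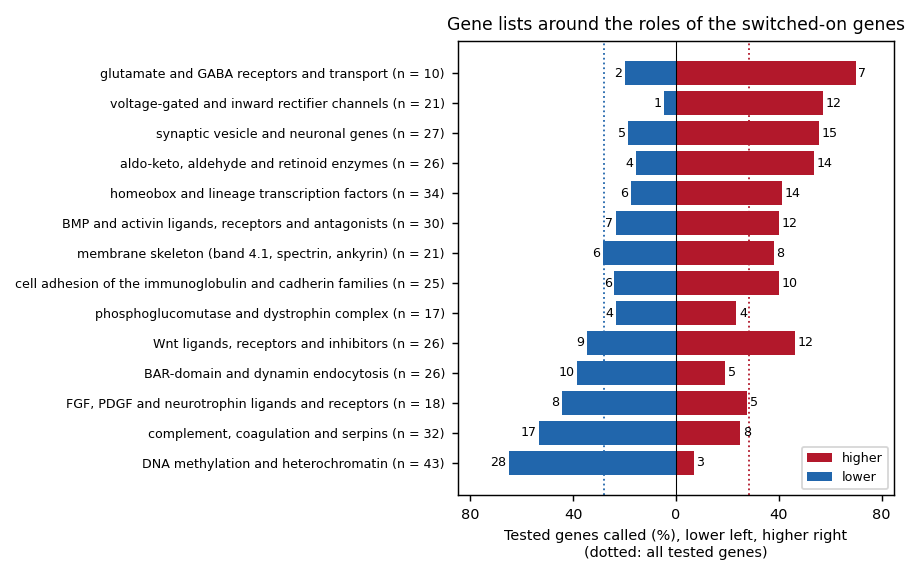
Share of the tested genes of each list called lower (blue, to the left) and higher (red, to the right) in GlnIND by edgeR, with the number called beside each bar and the shares of all genes tested as dotted lines. The glutamate and GABA list has 7 genes called higher, and the DNA methylation and heterochromatin list 28 called lower.

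Of the genes lying next to members in the genome, a larger share was called higher than of genes farther away. Gene order was taken from RefSeq, which placed all 76 genes, and any gene meeting the selection limits was passed over. The immediate tested neighbour on either side gave 144 distinct genes, of which 64 rose (44.4%) and 28 fell (19.4%) by edgeR, against 28.4% and 27.9% of all genes tested. Leaving out neighbours that overlap a member, 64 of 141 rose (45.4%). A log2 fold change above 2 was fitted for 16 of the 144 (11.1%), against 2.99% of the 13868 tested genes outside the selection, and one below -2 for 1 of them, MYOM2 beside CSMD1 (-2.99). In 18 members both neighbours rose and in 7 both fell. No test of the difference in shares was made.

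The larger share stood at the first 2 ranks. Counting outward, the share that rose was 45.4% at the first tested neighbour, 37.5% at the second and 23.7% at the third, and ran from 23.7% to 32.5% from the fourth to the tenth. The share that fell was 18.4% at the first neighbour, 32.9% at the third and 36.2% at the fourth, against 27.9% of all genes tested, and ran from 26.0% to 32.5% from the fifth to the tenth. Over windows of 10 tested genes on each side, the median of the 76 window medians was 0.03 on the log2 scale, with 44 above 0, and the windows ran from -1.14 around AFF2 to 0.68 around EPB41L3. First neighbours also had lower levels than the rest: their median CPM over all libraries was 17.3, against 32.7 at the second. The shares also differed within each range of level. Of immediate neighbours under 10 CPM, 28 of 51 rose (54.9%), against 34.2% of 4427 tested genes in that range, and at 10 CPM or more 36 of 93 rose (38.7%), against 25.1% of 9441.

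**Figure D4:**
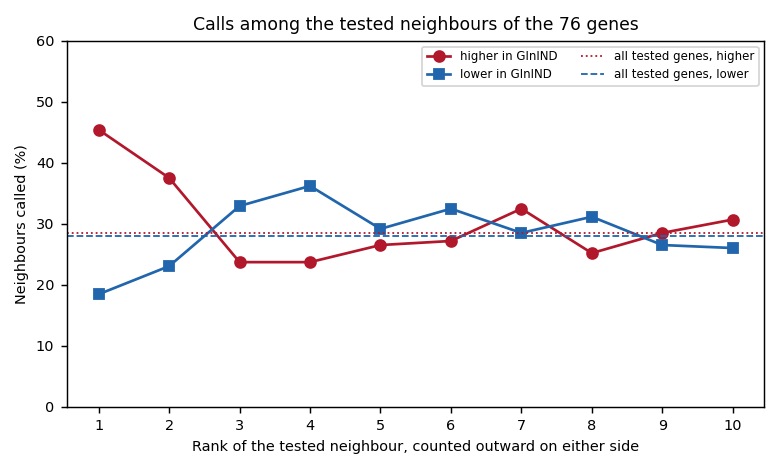
Share of tested neighbours called higher (red circles) and lower (blue squares) in GlnIND by edgeR, in percent, by rank outward from the 76 genes; dotted and dashed lines are the shares of all genes tested. The red line stands at 45.4% at the first neighbour and 23.7% at the third.

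The neighbours named here were chosen after their values were seen, as those with a log2 fold change above 2. HTR2C lay between AMOT and IL13RA2. AMOT, which encodes the junction protein angiomotin, had 4 counts in each parental library and 484, 522 and 593 in GlnIND (log2 fold change 6.67, SE 0.18, edgeR adjusted p = 2.46e-08). IL13RA2, a decoy receptor for interleukin 13, had 12, 16 and 15 against 1102, 1083 and 1167 counts (5.93, SE 0.15, edgeR adjusted p = 2.46e-08). Both had more counts in every GlnIND library than HTR2C itself, yet the window of 20 genes around HTR2C had a median of 0.06, with 6 genes higher and 5 lower. The 3 neighbouring genes thus stood apart from the genes around them.

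IL18R1 had the interleukin 33 receptor gene IL1RL1 on one side, with no parental counts and 30, 18 and 16 in GlnIND, and SLC9A2, a sodium-proton exchanger, on the other, with 8, 18 and 16 against 171, 211 and 317 counts. The next tested gene to SERTM2 was CAPN6, of the calpain family, with no parental counts and 14, 18 and 16 in GlnIND. IL1RL1 and CAPN6 fell short of the selection only by their GlnIND level, at means of 0.950 and 0.699 CPM. NAP1L2, a relative of the pseudogene NAP1L6P as well as its neighbour, had 10, 4 and 4 against 212, 266 and 296 counts, so reads may have been shared. MYO1D, described above among the myosins, lies beside TMEM98. DMD, the dystrophin gene, lies beside TMEM47 and stood at 1.93, 1.42 and 1.74 CPM in parental and 16.4, 12.2 and 11.1 CPM in GlnIND libraries.

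Others were LRFN5 beside LINC02315, PIP5K1B beside PGM5 and PGM5-AS1, ATP9A beside SALL4, LPAR4 beside RTL3, EDA beside FAM155B, ARMH4 beside CCDC198 and WNT5A beside CACNA2D3, with log2 fold changes from 2.04 to 3.69. EDA encodes ectodysplasin A, and an EDA isoform is the ligand of EDA2R, itself a member: EDA had 14, 0 and 12 parental and 76, 64 and 80 GlnIND counts. PIP5K1B, a phosphoinositide kinase, had 2, 0 and 2 against 28, 18 and 17 counts, far fewer than PGM5. Not all members lay among genes that rose. Both neighbours fell beside AFF2 (FMR1 by 1.16 and IDS by 1.12 on the log2 scale), GPC4 (MBNL3 by 0.83 and PHF6 by 0.82) and VWA5A (ZNF202 by 0.55 and TBRG1 by 0.94), and the window medians of these 3 were -1.14, -0.84 and -0.93.

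**Figure D5:**
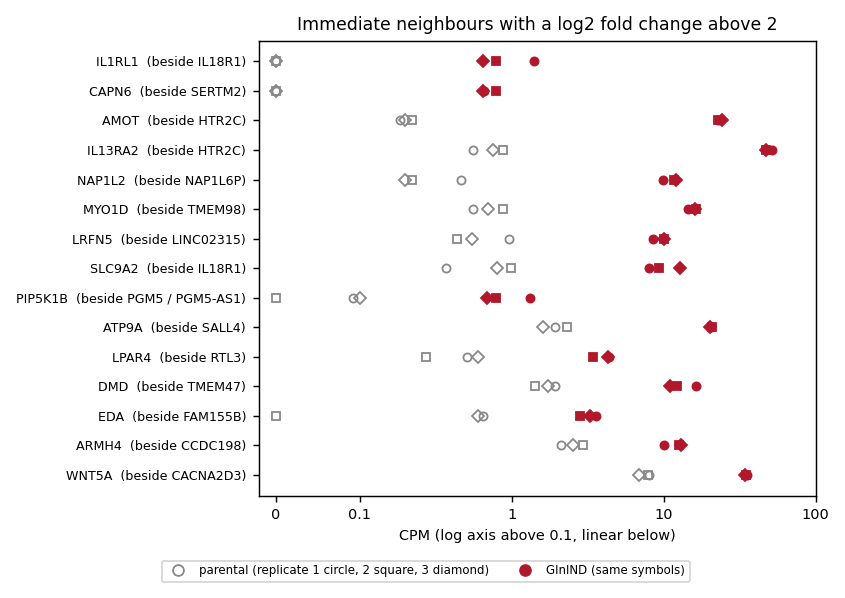
CPM in each library of the immediate neighbours reported here with a fitted log2 fold change above 2, on an axis that is logarithmic above 0.1 CPM and linear below; grey open symbols are parental and red filled symbols GlnIND libraries. In every row the GlnIND libraries lie to the right of the parental ones.

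Members themselves were adjacent in 4 cases, with no other tested gene between them: HOXB6 with HOXB5, EPB41L3 with L3MBTL4, SNHG18 with SEMA5A, and PGM5 with PGM5-AS1. The start of SNHG18 lies 125 bases upstream of that of SEMA5A, inside the SEMA5A window printed above. SNHG18 had no parental counts and 26, 32 and 32 in GlnIND, and SEMA5A had none and 35, 31 and 19. Their levels were of the same order but their order differed between libraries. EPB41L3 was far above its neighbour L3MBTL4, which had no parental counts and 22, 22 and 32 in GlnIND.

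Chromosome X held 12 of the 76 genes (15.8%), against 4.09% of all placed genes and 3.57% of tested genes: GPC4, PWWP3B, SHROOM4, HTR2C, TMEM47, AFF2, SERTM2, EDA2R, RTL3, FAM155B, NAP1L6P and TSPAN7. The tested genes of chromosome X as a whole had a median log2 fold change of -0.03. Chromosome 5 held 9 members (11.8%, against 4.58% of placed genes), among them KCNN2, CDH9 and SEMA5A, and chromosome 18 held 4 (5.26% against 1.51%), EPB41L3, L3MBTL4, KC6 and ZBTB7C. Chromosome 1 held 2 (2.63% against 10.0%), MUC1 among them. Chromosomes 13 and 22 held none. Since adjacent members share a place and the set was selected, these shares are given with no test.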

How the data were processed

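Unnormalised counts by gene symbol were deposited by the authors, both in a table for each library and in a joint matrix. Per the labels' protocols, polyA RNA was enriched with oligo-dT beads and primed at random. Per the submitters' processing notes, FastQC, STAR, featureCounts and DESeq were used with build hg19; their versions, the annotation, strandedness and the handling of multimapping reads are not given in the sources used here. Replicates 1 and 3 of either group carry each other's name in the matrix; the tables were followed.

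Counts of the 6 libraries were fitted by group with the two-sided quasi-likelihood test of edgeR 4.0.16 (glmQLFit, glmQLFTest; R 4.3.3), with TMM factors and filterByExpr (minimum count 10, minimum total 15). A gene was called where its p, adjusted by Benjamini-Hochberg over all 13949 tested genes, was under 0.05. The script was tested on simulated data. With 3 libraries against 3, a permutation test of 1 gene cannot give a p under 0.1. The members and lists were chosen with earlier results of these data known. Relatives were the other symbols with the same root, neighbours followed RefSeq gene order (GRCh38.p14; 97.6% of symbols placed), and exon lengths were merged exons of GENCODE v29. Named were the 25 members with the highest CPM, members described by role, those nearest each limit, and up to 2 called genes with the largest change and at least 1 CPM from each family or list, with exceptions stated. Some genes that the selection, the lists or the rule cover are not reported here, though they stay in all counts. Protein sequences were not used here. Alternatives were other limits and windows, the matrix, limma-voom (limma 3.58.1), DESeq2 1.42.0, a replicate block, leaving out a library, other scaling (RLE, upper quartile) and other filters (none, or 1 CPM in 3 libraries). Same-numbered libraries did not deviate together (correlations -0.06, 0.03 and -0.04).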

Additional observations from a re-analysis of the deposited data

How the results depend on the processing

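The number of genes selected follows the limits: 30 with no parental counts, 127 with at most 12, 165 at a GlnIND mean of at least 0.5 CPM and 33 at 2 CPM or more, against 76. It was 73 to 90 when a library was left out, with a lower parental limit where that library was parental. Of the 76 genes, 69 to 74 were kept. The median of window medians (0.03, log2) was 0.0132 with RLE factors, 0.121 with upper-quartile factors, 0.0641 without a filter, 0.0212 with the CPM filter, 0.0132 with DESeq2, -0.0287 with windows of 20 genes on each side, and 0.00276 to 0.0463 with a library left out, values all near 0. Without a filter 46 of 145 immediate neighbours rose (31.7%, against 20.7% of all genes) and 15 fell, in a fit where genes otherwise left untested also count as neighbours. With upper-quartile factors 50.7% rose against 34.0%, and with a library left out 36.8% to 48.6% against 22.3% to 32.3%. With the replicate block 3719 genes rose and 3584 fell over all genes, 61 immediate neighbours rose, and 97 relatives rose and 62 fell. As the numbers pair no samples, this is a fit only. Calls of relatives, neighbours and lists otherwise kept within 1.5 times the counts given. Of 147 genes checked singly (relatives, neighbours, markers and list genes), 19 lost the call under some alternative, MAT2A under the block among them, and none changed direction. The alternative on CpG-rich promoters is not reported, because the check was void. Depth limits the parental side: a gene at 0 in all 3 parental libraries could lie anywhere under 0.0999 CPM, and the lowest GlnIND count of a selected gene was 14.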

Other observations

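Lists of secreted signals and their receptors, which hold no member, moved in both directions. Of all genes tested, 28.4% rose and 27.9% fell. Of 26 tested Wnt genes 12 rose and 9 fell by edgeR's quasi-likelihood test, the receptor genes FZD8 and LGR5 rising most, from 5.72 to 45.4 CPM (log2 fold change 2.84, SE 0.11, adjusted p = 1.14e-07) and from 1.87 to 14.8 CPM (2.83, SE 0.15, adjusted p = 7.03e-07). Of 30 BMP and activin genes 12 rose and 7 fell. SMAD6, an inhibitor of BMP signalling, rose by 2.53 on the log2 scale, and ID4, a BMP target gene, fell from 47.1 to 4.87 CPM (-3.43, SE 0.13, edgeR adjusted p = 7.21e-08). Of 18 FGF, PDGF and neurotrophin genes 5 rose and 8 fell, with FGF11 at 2.62 and the neurotrophin receptor NGFR at -3.99.

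Complement, coagulation and serpin genes mostly fell: 17 of 32 tested genes fell and 8 rose, with a median log2 fold change of -0.28 against 0.03 over all genes tested. Over all genes tested 27.9% fell and 28.4% rose. SERPINB2, an inhibitor of plasminogen activators, stood at 17.3, 16.2 and 18.3 CPM in parental and 1.60, 0.614 and 1.22 CPM in GlnIND libraries (log2 fold change -4.07, SE 0.24, edgeR adjusted p = 1.07e-06). C3, the central complement component, fell from 4.18 to 0.409 CPM (-3.49, SE 0.27, edgeR adjusted p = 5.70e-06).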
